A study of Rattus norvegicus with 12 samples.

Results

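Uroguanylin (Guca2b), guanylin (Guca2a) and the receptors and kinase through which guanylin and natriuretic peptides act were followed in the renal cortex of rats given bromodichloromethane (BDCM), which forms when drinking water is chlorinated. The 7 genes were taken as every probe whose RefSeq accession belongs to Guca2b, Guca2a, Gucy2c, Npr1, Npr2, Npr3 or Prkg2. They had 11 probes, of 27460 probes that could be named for 15284 genes. The genes were chosen from the BDCM differences of these same arrays. Their BDCM differences are therefore given as a description, with standard errors (SE) and no p-value. Members are tested in other comparisons only.

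The animals were male Sprague-Dawley rats (Crl:CD(SD)), bought at 5 weeks of age, with no engineered allele named. BDCM was given at 200 mg/kg per day for 4 weeks in corn oil, and the control rats received corn oil alone. Cortex was taken 24 h after the last dose, when the rats were bled under anaesthesia, with a CO2-O2 mixture in one experiment (B92) and with isoflurane in the other (B103). This gave 4 groups of 3 rats, each with its own one-colour Agilent array, and the anaesthetic cannot be told apart from the experiment.

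Guanylin and uroguanylin are small peptides made mainly by the gut lining and also by the kidney. They activate guanylyl cyclase C (Gucy2c), which makes the second messenger cGMP, and cGMP-dependent protein kinase II (Prkg2) then drives chloride and bicarbonate secretion in the gut. In the kidney uroguanylin promotes salt excretion. Atrial and B-type natriuretic peptides raise cGMP through the receptor cyclase Npr1 and C-type natriuretic peptide through Npr2, whereas Npr3 takes these peptides up and clears them.

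Guca2b and Guca2a are neighbours on rat chromosome 5. They lie on opposite strands with 0 genes listed between them. Their promoters are shown because the pair gave unlike BDCM differences. Each run holds 250 bases before and 50 bases after the gene's start in RefSeq's GRCr8 build, read 5′ to 3′ along the gene. Promoter sequence was at hand for 4 of the 7 genes (Guca2b, Guca2a, Npr1 and Npr3). Guca2b lies on the minus strand at chr5:138534161-138534460 and Guca2a on the plus strand at chr5:138522196-138522495, with the first transcribed base in capitals.
Guca2b: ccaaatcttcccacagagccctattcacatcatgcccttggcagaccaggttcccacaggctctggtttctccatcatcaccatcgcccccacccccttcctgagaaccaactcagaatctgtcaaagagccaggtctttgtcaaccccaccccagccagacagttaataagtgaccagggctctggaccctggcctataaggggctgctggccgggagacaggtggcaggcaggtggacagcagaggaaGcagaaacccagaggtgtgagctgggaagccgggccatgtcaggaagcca
Guca2a: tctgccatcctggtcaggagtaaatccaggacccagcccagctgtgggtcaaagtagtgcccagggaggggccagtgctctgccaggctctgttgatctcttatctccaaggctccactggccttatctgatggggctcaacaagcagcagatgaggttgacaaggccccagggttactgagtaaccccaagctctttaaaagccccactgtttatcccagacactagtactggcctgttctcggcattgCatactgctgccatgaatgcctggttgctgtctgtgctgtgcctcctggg
TATAAA, the letters of a TATA box, searched on both strands, was in none of the 4 promoters, and 14.2% of 33469 promoters of this length hold it. The absence says only that these letters are not in these windows.

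Signals are given as log2 of the array's background-subtracted signal relative to that array's 75th percentile, so that 1 unit is a doubling. Of the 61657 probes on each array, 67.4 to 72.5% were well above background. Tests were limma fits over all 34217 genes and unnamed probes that some group showed well above background in each of its 3 rats, with p-values adjusted by Benjamini-Hochberg over all of them. A difference passed where the adjusted p was under 0.05. The number of arrays limits the precision. Where groups of 3 rats are said to be apart, the share of all features that were apart in the same way is not given. Such separation is therefore a description of the readings only. Markers of proximal tubule such as megalin (Lrp2) and cubilin (Cubn) were well above background on all 12 arrays. Albumin (Alb), a liver transcript, ran from -8.07 to 1.66 between animals.

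Uroguanylin was lower in every BDCM rat than in every control. Guca2b read 1.58, 0.72 and 1.08 in the CO2-O2 controls and -1.91, -1.58 and -1.46 in the CO2-O2 rats given BDCM. It read 1.66, 1.13 and 1.75 in the isoflurane controls and -1.03, -1.02 and -1.07 in the isoflurane rats given BDCM. The highest BDCM rat thus lay well under the lowest control in both experiments. The 3 isoflurane BDCM rats differed by an SD of only 0.03, against 0.34 among their controls (n = 3 each). The difference was -2.78 ± 0.22 (SE) with CO2-O2, a 6.85-fold lower signal, and -2.55 ± 0.22 with isoflurane, 5.86-fold lower. Averaged over both experiments it was -2.66 ± 0.16, a 6.34-fold lower signal. Guca2b ranked 8 of 12207 named genes by how far it lay below the controls. The genes were chosen from these same differences, so nothing is read from the rank. In whole cortex, fewer cells that make a transcript and less of it per cell cannot be told apart.

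The other Guca2b probe gave the same picture. It read 0.84, 0.03 and 0.41 in the CO2-O2 controls against -2.24, -2.05 and -1.82 with BDCM. With isoflurane it read 1.01, 0.44 and 1.08 against -1.39, -1.40 and -1.41. Its mean difference was -2.35 ± 0.15 (SE). On every array it was dimmer than the first probe, by 0.33 to 0.74, and on both probes controls and BDCM rats were fully apart. Inside the slides that held both treatments the Guca2b difference was -2.71 (3 controls and 1 BDCM rat, CO2-O2) and -2.77 (1 control and 2 BDCM rats, isoflurane).

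Guanylin, the close relative that lies next to Guca2b, overlapped between treatments in both experiments. Guca2a read 1.96, 2.11 and 2.54 in the CO2-O2 controls and 2.36, 1.93 and 1.94 with BDCM. It read 1.82, 2.29 and 2.09 in the isoflurane controls and 2.14, 1.59 and 2.01 with BDCM. Its difference averaged -0.14 ± 0.14 (SE), with a 95% interval from -0.46 to 0.18. Both Guca2a probes gave -0.14 ± 0.14, and their readings differed by no more than 0.09 on any array.

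**Figure D1:**
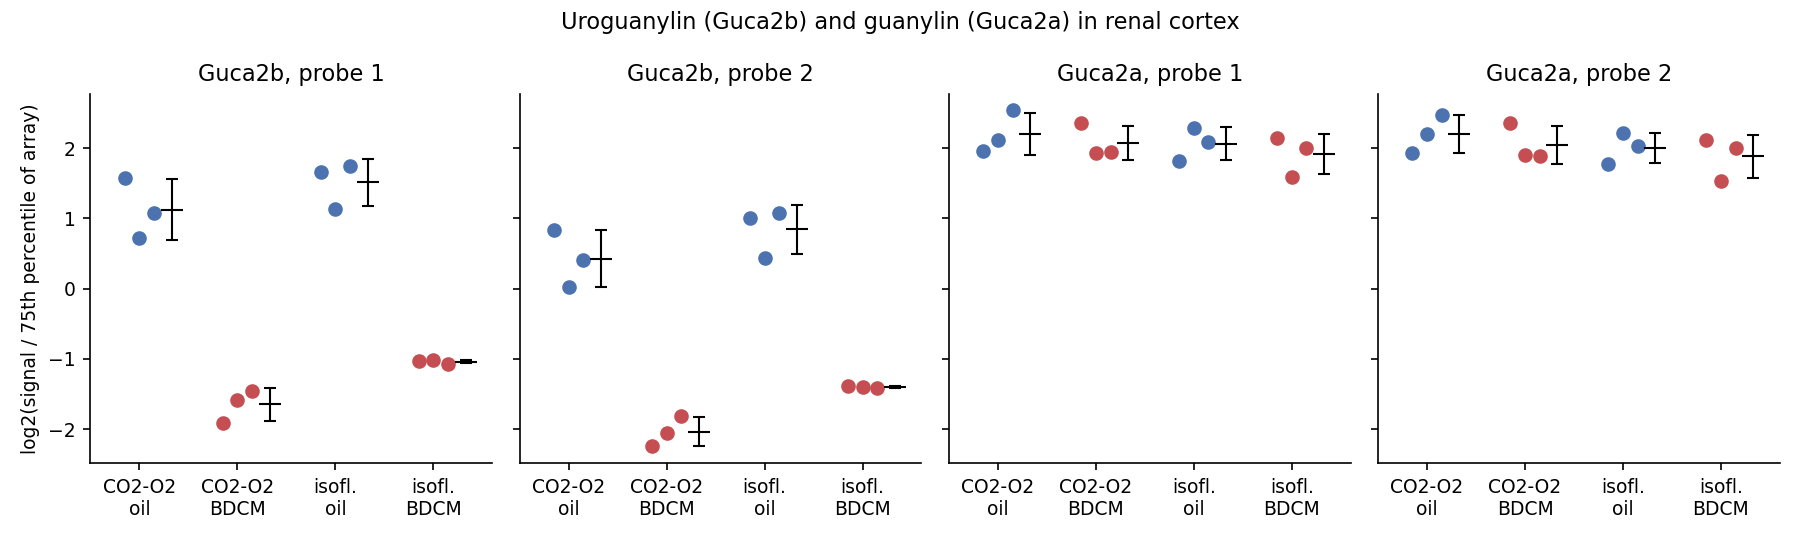
Signal of both Guca2b probes and both Guca2a probes in each rat, as log2 relative to the array's 75th percentile. Dots are rats (3 per group, blue oil, red BDCM) and black bars the group mean ± SD. Guca2b is at -1.02 or below in every BDCM rat on both probes and at 0.03 or above in every control, whereas the Guca2a groups overlap.

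The Guca2b difference was of similar size in both experiments. The test of the difference between the experiments gave 0.23 ± 0.32 (SE; limma, adjusted p = 0.958), with a 95% interval from -0.48 to 0.93. Isoflurane rats read higher than CO2-O2 rats by 0.39 ± 0.22 among controls (limma, adjusted p = 0.305) and by 0.61 ± 0.22 among BDCM rats (limma, adjusted p = 0.0859). Neither passed, although the interval among BDCM rats, from 0.12 to 1.11, leaves out 0 before adjustment.

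The receptor of the guanylin peptides was not measurable. Both Gucy2c probes were not well above background on any of the 12 arrays, so it was not tested and its level in cortex has only an upper bound.

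The natriuretic peptide receptors differed by smaller amounts and not all in the same direction. Npr1, the receptor for atrial natriuretic peptide, read 2.16, 2.21 and 2.27 in CO2-O2 controls and 1.96, 2.13 and 1.92 with BDCM. With isoflurane it read 2.37, 2.25 and 2.37 in controls and 2.03, 1.75 and 2.21 with BDCM. Every BDCM rat lay below every control of its experiment, though by a narrow margin, and the mean difference was -0.27 ± 0.08 (SE), a 1.21-fold lower signal. With CO2-O2 it was -0.21 over all arrays but only -0.08 on the slide that held 3 controls and 1 BDCM rat. With isoflurane it was -0.33 over all arrays and -0.48 on the slide that held 1 control and 2 BDCM rats.

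Npr2, the receptor for C-type natriuretic peptide, went the other way. It read -0.31, -0.04 and -0.08 in CO2-O2 controls and 0.14, 0.88 and 0.13 with BDCM. With isoflurane it read 0.05, -0.28 and -0.12 in controls and 0.44, 0.47 and 1.00 with BDCM. The groups did not overlap, and 1 BDCM rat in each experiment stood above the other two. The mean difference was 0.64 ± 0.15 (SE), 1.56-fold higher. With CO2-O2 it was 0.53 ± 0.22 over all arrays and 1.02 on the slide that held 3 controls and 1 BDCM rat, that BDCM rat being the high one.

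The clearance receptor Npr3 was lower with BDCM in both experiments. It read -2.80, -2.72 and -2.66 in CO2-O2 controls and -3.17, -3.15 and -2.99 with BDCM. With isoflurane it read -2.33, -2.50 and -2.50 in controls and -2.93, -3.26 and -3.05 with BDCM. The groups did not overlap, and the mean difference was -0.51 ± 0.07 (SE), 1.42-fold lower. A second Npr3 probe gave -0.52 ± 0.08, with -0.31 under CO2-O2 and -0.74 under isoflurane.

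Prkg2, the kinase that carries the cGMP signal to transporters, was close to the limit of the array. It was well above background in 3 of 3 CO2-O2 controls, 2 of 3 CO2-O2 BDCM rats, 1 of 3 isoflurane controls and 0 of 3 isoflurane BDCM rats. Measured values were -5.54, -5.16 and -5.64 against -5.99, -7.50 and -5.91 with CO2-O2, and -5.35, -5.61 and -6.16 against -5.71, -7.71 and -7.07 with isoflurane. The mean difference of -1.07 ± 0.37 (SE) rests on these dim readings. With each reading raised at least to its array's background limit, the difference was -0.50 with CO2-O2 and -0.11 with isoflurane.

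**Figure D2:**
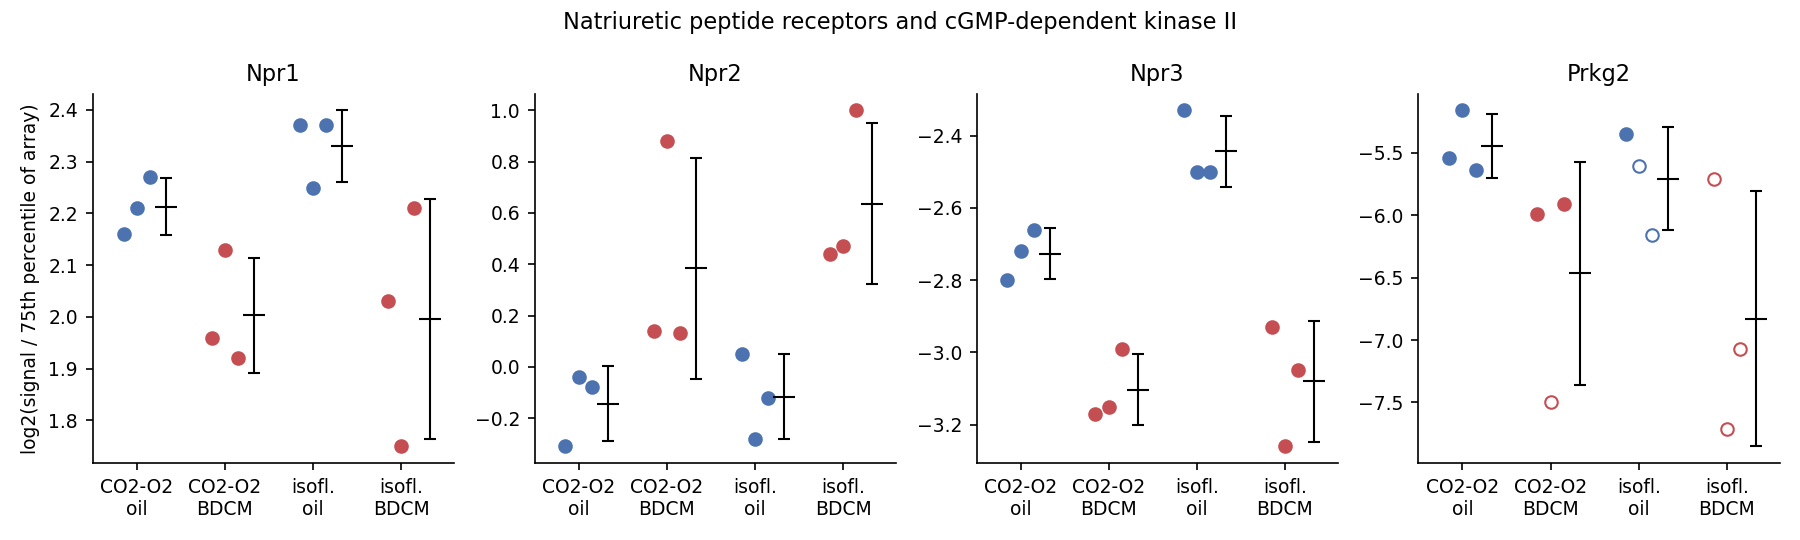
Signal of Npr1, Npr2, Npr3 and Prkg2 in each rat, as log2 relative to the array's 75th percentile, each panel with its own scale. Filled dots were well above background and open dots were not, blue is oil, red is BDCM, and black bars are the group mean ± SD (n = 3). Npr1 and Npr3 are lower and Npr2 higher in every BDCM rat than in the controls of the same experiment, and 6 Prkg2 readings are open. The share of all features that were apart in this way is not given.

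For scale only, the fit over all features put 5 of the 6 measured genes past its threshold for the mean BDCM difference (1 higher, 4 lower), 2 with CO2-O2 alone (both lower) and 3 with isoflurane alone (1 higher, 2 lower). These are the differences that chose the genes, so nothing is read from any of the 3 counts. Prkg2 is among the 4 lower, although it passed the background filter only through the CO2-O2 controls, in which it was brighter. Its mean difference was past the threshold in 15 of 27 alternatives. Over all 34217 features 38.1% passed for the mean, 17.7% higher and 20.4% lower. With CO2-O2 alone it was 19.9%, 10.0% higher and 9.89% lower, and with isoflurane alone 26.1%, 13.2% higher and 12.9% lower. The median of the 6 mean differences was -0.39, and that of all features -0.04. These counts moved with single animals: the mean-difference count was 3 without CO2-O2 control 3, and the CO2-O2 count was 1 without CO2-O2 control 2 or 3 or CO2-O2 BDCM rat 1 or 2.

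**Figure D3:**
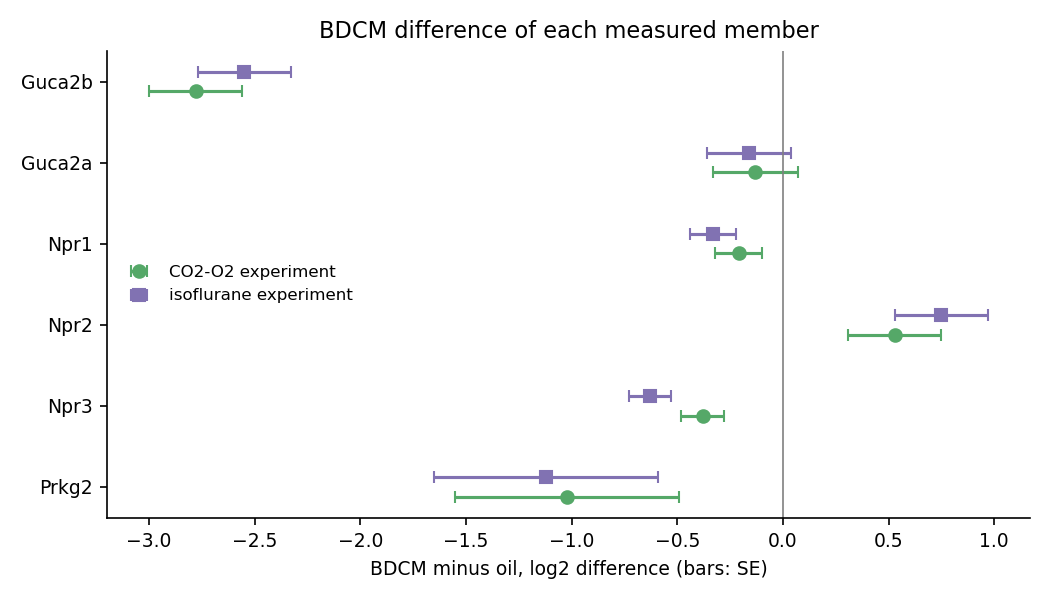
BDCM minus oil for the 6 measured genes, as a log2 difference with SE bars (3 rats per group). Circles are the CO2-O2 and squares the isoflurane experiment. Guca2b lies at -2.78 and -2.55, Guca2a near 0, Npr2 above 0, and Npr1, Npr3 and Prkg2 below 0 in both, Prkg2 with 6 of its 12 readings not well above background.

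No member's BDCM difference passed as different between the experiments. In limma fits 0 of 6 passed, at adjusted p-values from 0.935 to 0.994, and 0 had an unadjusted p under 0.05. Across all features 0% passed (0 of 34217), although 1731 had an unadjusted p under 0.05. The other tests of the members compared the experiments within a treatment. Among controls 0 of 6 passed in limma, against 11.1% of all features. Npr3 came closest, at 0.28 ± 0.10 (SE) higher with isoflurane (adjusted p = 0.1, and 0.0361 with array weights; range over 27 alternatives 0.0361 to 0.261), and it was the 1 gene with an unadjusted p under 0.05. Among BDCM rats 0 of 6 passed in limma, against 17.1% of all features, and 1, Guca2b, had an unadjusted p under 0.05.

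Genes whose pattern over the 12 arrays lay nearest to each member were found by the root mean square difference after each gene's own mean was removed, among 12206 other named genes. For Guca2b, which itself spread by 1.38 around its mean, they were Nobox (0.51), Ppp1r17 (0.52), Lrrtm3 (0.54), Cldn24 (0.63) and Trpm8 (0.64). Being matched to Guca2b, these by choice also had lower BDCM values, from -1.87 to -3.17 with CO2-O2 and from -1.81 to -2.40 with isoflurane. They were well above background on only 3 to 10 of the 12 arrays. For Npr1 (own spread 0.18) the nearest were Stim1, Acvrl1 and Tmem204, each at 0.07. For Npr3 (0.29) they were Cmip (0.09), Nrp1 (0.09) and Plxna2 (0.10). Npr2 (0.41) lay nearest to Slc20a2 (0.16), Nt5dc2 (0.16) and Cntln (0.17), and Guca2a (0.24) to Ka11 (0.13), Sdc4 (0.15) and Lman1l (0.15). For Prkg2 (0.81) they were Or6b1 (0.30), Vom1r82 (0.37) and Slc38a5 (0.37), the first pair dim on most arrays. All points share the treatment and the array, so this is a description of likeness only.

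Other genes of cGMP signalling were taken from 7 lists that held 72 genes, of which 64 were on the array and 50 could be tested. These lists, and the marker lists further on, were chosen with earlier results of these data known. The BDCM p-values of their genes are therefore no independent test. For the mean BDCM difference 5 rose, 16 fell and 29 did not pass, which is 42% called beside the 38.1% of all features. Their median was -0.14. With CO2-O2 alone 3 rose and 4 fell, 14% beside 19.9% of all features, and with isoflurane alone 4 rose and 10 fell, 28% beside 26.1%. Those counts depended on single animals. With CO2-O2 the 7 calls became 4 without CO2-O2 control 1 or CO2-O2 BDCM rat 2 or 3, 12 without CO2-O2 BDCM rat 1 and 13 without isoflurane BDCM rat 2. With isoflurane the 14 became 9 without isoflurane control 2 or 3 and 6 without isoflurane BDCM rat 2.

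Both measured pumps that carry cGMP out of cells rose, beside 17.7% of all features that rose. Abcc4, an exporter of cyclic nucleotides and organic anions in the proximal tubule, read 2.02 to 2.33 in CO2-O2 controls against 3.40 to 3.65 with BDCM, and 2.45 to 3.08 against 3.63 to 4.25 with isoflurane. Controls and BDCM rats were apart in both experiments. Its rise was 1.34 ± 0.14 (SE), 2.53-fold (limma, adjusted p = 6.85e-05). Abcc5, a related exporter, rose by 0.81 ± 0.12, 1.75-fold (limma, adjusted p = 0.00072).

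Of 10 measured phosphodiesterases that break down cyclic nucleotides 1 rose, 1 fell and 8 did not pass, 20% called beside 38.1% of all features. Pde5a, the cGMP-specific enzyme that sildenafil inhibits, rose by 0.70 ± 0.17, 1.63-fold (limma, adjusted p = 0.00921). That call was lost with scan day as a block (adjusted p = 0.0557). The calmodulin-dependent Pde1b fell by 0.50 ± 0.11 (limma, adjusted p = 0.00534). Among 4 cGMP effectors Vasp, an actin regulator and kinase substrate, rose by 0.33 ± 0.08 (limma, adjusted p = 0.0106, and 0.0682 with slide as a block), and the other 3 did not pass. The main kinase of smooth muscle, Prkg1, was not well above background on all arrays of any group and was not tested.

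Among the natriuretic peptides themselves Nppa, the gene of atrial natriuretic peptide, was the one that could be tested. Nppb, Nppc and Ostn were too dim by the same rule. Nppa fell by 0.63 ± 0.21 (limma, adjusted p = 0.0378), read -4.88, -4.73 and -4.83 against -5.27, -5.13 and -5.90 with CO2-O2, and overlapped between treatments with isoflurane. It was well above background in 2 of the 3 CO2-O2 BDCM rats and in all rats of the other groups. The Nppa call held in 14 of 27 alternatives. It was lost without CO2-O2 control 1 (adjusted p = 0.0614), 2 (0.0744) or 3 (0.0675), without CO2-O2 BDCM rat 3 (0.0823), without isoflurane control 2 (0.0803) or 3 (0.0833) and without isoflurane BDCM rat 2 (0.0774) or 3 (0.0661), with adjusted p-values from 0.00919 to 0.23 over all alternatives.

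Of the enzymes that process or degrade natriuretic peptides, neprilysin (Mme), a peptidase of the proximal tubule brush border, fell by 1.08 ± 0.20 (limma, adjusted p = 0.00202). With CO2-O2 its BDCM readings were 3.93, 2.84 and 2.83 against 4.06, 4.27 and 3.79 in controls, so that 1 BDCM rat lay inside the control range. The proprotein convertase Furin fell by 0.43 ± 0.07 (limma, adjusted p = 0.000688). Pcsk6, a related convertase, rose by 0.97 ± 0.25 (limma, adjusted p = 0.0118, and 0.0523 with slide as a block).

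Of 8 other guanylyl cyclases and cyclase activators measured, 4 fell, 0 rose and 4 did not pass. That is 50% called, beside 38.1% of all features called and 20.4% that fell. The soluble cyclase subunit Gucy1b2 fell by 1.01 ± 0.26 (limma, adjusted p = 0.013, and 0.0797 with slide as a block). With CO2-O2 its BDCM readings were 2.37, 0.80 and 0.65 against 2.52, 2.20 and 2.02 in controls, so that BDCM rat 1 lay inside the control range, as it did for Mme. Gucy1a1, an alpha subunit of the soluble cyclase, fell by 0.57 ± 0.15 (limma, adjusted p = 0.0133, and 0.0983 with the mean of probes). Gucy2d, a membrane cyclase of olfactory neurons in rodents, was well above background in the CO2-O2 controls alone, where its signal (mean -5.97) was at least 1.22-fold that of the CO2-O2 BDCM rats (measured mean -6.65), a bound against the background limit. It counts among the 4 (limma, adjusted p = 0.048), but it passed the background filter only through the group in which it was bright, so nothing is read from its call. No fold can be given with isoflurane, and the call held in 7 of 27 alternatives. Leaving out any 1 of 9 animals ended it, at adjusted p-values from 0.0665 to 0.103, the exceptions being CO2-O2 BDCM rat 2 (0.0258), isoflurane control 3 (0.0385) and isoflurane BDCM rat 2 (0.0194). The nitric oxide synthases Nos2 and Nos3, which feed the soluble cyclases, gave 0.04 and -0.07 for BDCM and did not pass.

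Of 19 measured transporters and partners that cGMP or salt balance act on, 8 fell, 0 rose and 11 did not pass. That is 42.1% called, beside 38.1% of all features called and 20.4% that fell. The chloride channel Cftr fell by 1.28 ± 0.27 (limma, adjusted p = 0.00394, and 0.11 with slide as a block), with 1 of the 3 isoflurane BDCM rats not well above background. Pendrin (Slc26a4), the chloride-bicarbonate exchanger of intercalated cells, fell by 1.07 ± 0.14 (limma, adjusted p = 0.000248). The brush border scaffold Pdzk1 fell by 0.65 ± 0.09 (limma, adjusted p = 0.000452). The sodium-hydrogen exchanger Slc9a3, picked out after its values were seen, fell by 0.51 ± 0.16 (limma, adjusted p = 0.029). That call was lost without CO2-O2 control 1 (adjusted p = 0.0581) or 2 (0.0596), CO2-O2 BDCM rat 3 (0.0626) or isoflurane control 3 (0.0632), over a range of 0.00807 to 0.122. The epithelial sodium channel subunits Scnn1a (-0.05), Scnn1b (0.11) and Scnn1g (0.01) did not pass.

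**Figure D4:**
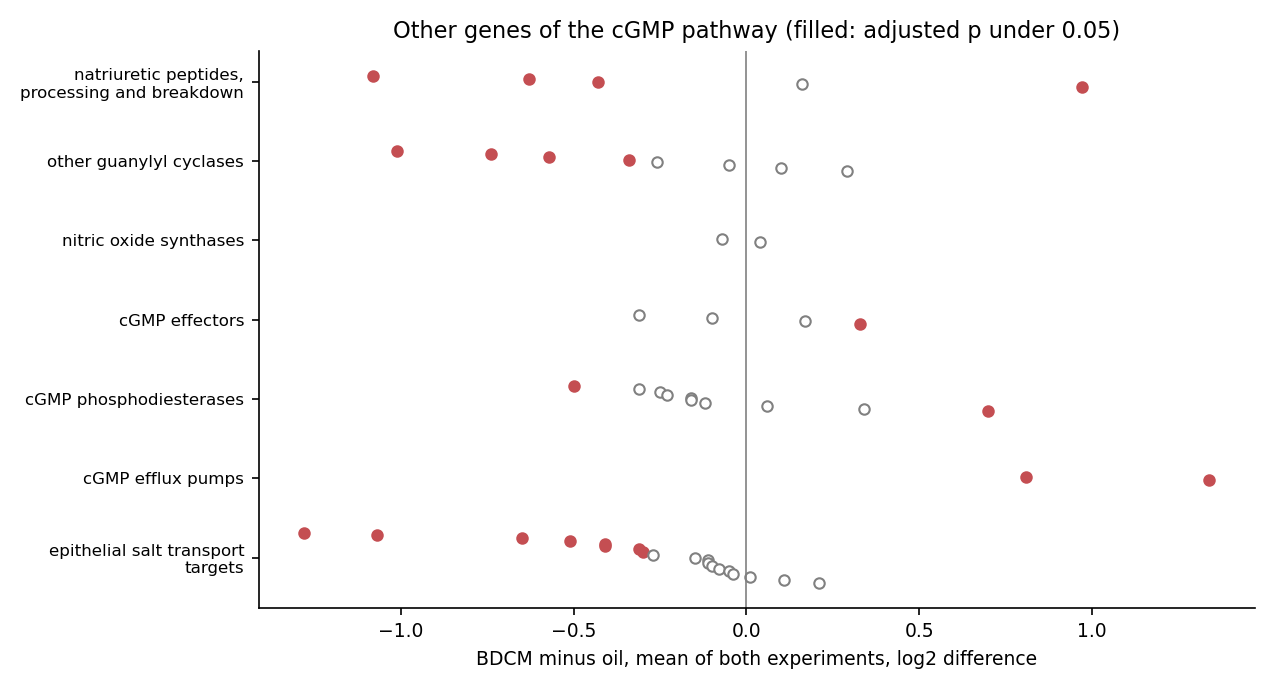
Mean BDCM difference (log2, both experiments) of the 50 measured genes of the 7 lists, with 1 dot per gene and filled dots for an adjusted p under 0.05 in limma. Both efflux pumps are to the right of 0, and all 8 filled dots among salt transport genes are to the left.

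Between experiments, differences within a treatment were tested for the pathway genes too. Among controls 4 of 50 passed, 8% beside 11.1% of all features. The inducible nitric oxide synthase Nos2 was higher with isoflurane by 0.73 ± 0.15 (limma, adjusted p = 0.0129), the membrane cyclase Gucy2e by 0.54 ± 0.11 (0.0151) and the thiazide-sensitive cotransporter Slc12a3 by 0.81 (0.0193), and Cftr was lower by a difference of -1.34 (0.0478). Without CO2-O2 control 1 that count was 0, without CO2-O2 control 2 or isoflurane control 1 or 2 it was 2, and without isoflurane BDCM rat 2 it was 7. Among BDCM rats 7 passed, 14% beside 17.1% of all features, again with Nos2 higher, at 0.79 ± 0.15 (limma, adjusted p = 0.00701), and Gucy2e higher, at 0.53 ± 0.11 (0.0117). For the difference between BDCM effects 0 of the 50 passed in limma.

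Cell type markers differed too, where 20.4% of all features fell and 17.7% rose. Of 14 proximal tubule markers 12 fell and 1 (Slc17a3) rose. The summed level of the 13 that had a value on every array (Slc13a3 had none in CO2-O2 control 1) ran from 1740 to 1810 in CO2-O2 controls against 1030 to 1360 with BDCM, and from 1960 to 2040 against 930 to 1380 with isoflurane. Of 7 podocyte markers 6 fell, with a summed level of 33.1 to 43.1 against 26.2 to 32.2 with CO2-O2 and of 34.8 to 39.7 against 23.3 to 29.6 with isoflurane. Of 7 endothelial markers 2 fell, as did 2 of 5 for the thick ascending limb, 2 of 3 for the distal convoluted and connecting tubule, 3 of 5 for mural and juxtaglomerular cells and 1 of 2 for adipose tissue. Of 7 collecting duct markers 4 fell and 1 rose. Of 6 liver markers Tf rose, none of 5 leukocyte markers or the 1 measured adrenal marker passed, and of 5 injury markers Havcr1 and Spp1 rose. The part of these shifts in the receptor and transporter differences was not tested.

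Guca2b lay lower than the proximal tubule and podocyte sums did. As a share of the same experiment's control mean, the sum of 13 proximal tubule markers was at 46.4 to 76.6% in BDCM rats. The podocyte sum was at 62.8 to 86.1% in these 6 rats and Guca2b at 11.8 to 17.0%. Such a sum mostly follows its bright genes, and single markers can lie much lower. The bright tubule markers Miox and Slc34a1 fell by 0.76 and 0.25, whereas the dimmer Slc7a13 fell by 1.81. The intestine sum ran from 15.6 to 87.3% in the same rats and so overlapped the Guca2b range. CO2-O2 BDCM rat 1 was picked out after its values were seen. It had a proximal tubule sum of 76.6% and Guca2b at 11.8%. The other rats of its group had Guca2b at 14.8 and 16.2%. CO2-O2 controls ranged more widely, from 73.3 to 133%, so nothing is read from the order of the BDCM rats. The part of the marker shifts in the Guca2b difference was not tested. Of the 14 proximal tubule markers in CO2-O2 BDCM rat 1, 9, Lrp2 and Cubn among them, lay below every CO2-O2 control, 3 inside the control range and 2 above it. Slc7a13, a marker of the S3 segment picked out after its values were seen, read 6.50, inside the control range of 6.48 to 7.10, and Tff3, an epithelial peptide also made in gut, read 6.54 against 6.32 to 7.02. In the other 5 BDCM rats both were under their controls, and over both experiments Slc7a13 fell by 1.81 (limma, adjusted p = 0.00324) and Tff3 by 1.58 (0.00501). In isoflurane BDCM rat 2 Slc7a13 read 2.84 against 5.42 to 6.06 in controls, and Guca2b read -1.02 against 1.13 to 1.75. Of 5 measured intestine markers Tff3 was the 1 that fell, and it makes up most of that list's sum (80.2 to 130 against 16.6 to 93.1 with CO2-O2, and 57.4 to 63.8 against 17.7 to 23.3 with isoflurane). The enterocyte gene Fabp2 was well above background on 1 of the 12 arrays, that of isoflurane control 1. Leaving out isoflurane control 3 and isoflurane BDCM rat 1, in which albumin was highest of their groups (-2.97 and -0.69), gave a mean Guca2b difference of -2.61. All CO2-O2 rats were kept in that fit, although their albumin ran from -1.44 to 1.66.

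**Figure D5:**
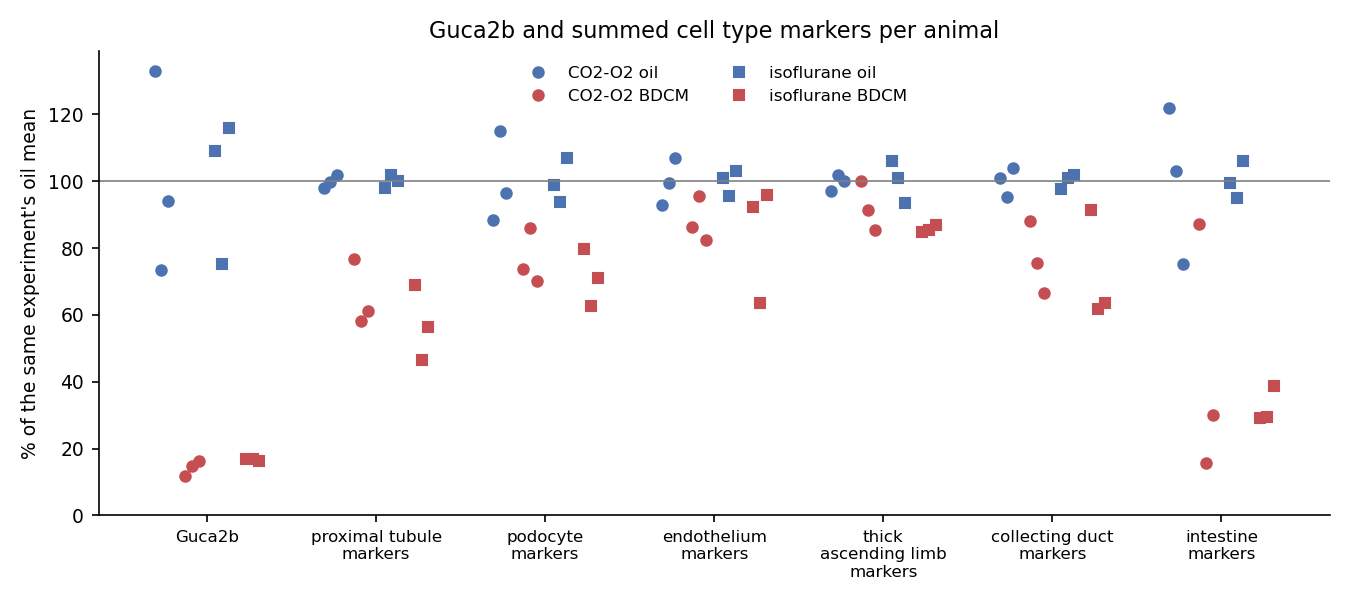
Guca2b and the summed linear signal of marker lists in each rat, as a percent of the oil mean of the same experiment (grey line, 100%). Circles are CO2-O2, squares isoflurane, blue oil, red BDCM. Guca2b is at 11.8 to 17.0% in the 6 BDCM rats, where the sum of 13 proximal tubule markers is at 46.4 to 76.6%. The intestine sum, at 15.6 to 87.3% in these rats, mostly follows Tff3.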

How the data were processed

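The labels, per their protocols, describe 12 arrays of renal cortex RNA, 3 rats in each of 4 groups. Per the file headers, the deposited files are scanner output in intensity units. Feature Extraction (Agilent) produced them, version 10.7 in the submitters' processing notes and 10.7.1.1 in the headers, subtracting background inside each array and leaving arrays unscaled against each other. A deposited table of values gives, as a linear ratio, every signal over the 75th percentile of its array. Its isoflurane columns matched their own scanner files, whereas each CO2-O2 column matched another animal of the same group over 28494 probes, so it served as an alternative only. Its column medians were 0.0999 to 0.112. No per-sample column was left unused.

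Here, control spots and 115 outlier values were left out, log2 processed signal minus each array's log2 75th percentile (1079.5 to 1476.5 in signal) was used, and a gene was represented by its probe with the highest mean. Probes were named through RefSeq accessions for 27460 of 61657 probes. The 12207 named and 22010 unnamed features that passed the background filter went into a linear model (limma 3.58.1, R 4.3.3) holding 1 mean per group, moderated by empirical Bayes (10.13 degrees of freedom). The fit was tested on simulated data. The members and gene lists were chosen with earlier results of these data known. Pathway genes named are up to 3 per direction and list with the largest mean difference among those that passed, and the nearest genes are 3 per member and 5 for Guca2b; exceptions are marked. Some genes and lists are not reported here. Replicate numbers did not pair the rats (correlations of same-numbered deviations from -0.02 to 0.05). No slide or scan day spanned both experiments. Figures were drawn with matplotlib 3.10.9. Alternatives changed scaling, background correction (normexp, offset 50), filter, probe choice, weights, trend, blocks and threshold (0.01), and left out each animal.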

Additional observations from a re-analysis of the deposited data

How the results depend on the processing

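The Guca2b mean difference stayed between -2.77 and -2.51 over 28 alternatives, and that of Guca2a between -0.25 and -0.06. The 10 member differences past 0.05 in the fit were all among the BDCM differences that chose the genes, so nothing is read from their stability. None of these 10 changed sign in any alternative. Of the other 26, 11 did in at least 1, among them the difference of Guca2b effects (0.23, down to -0.06), the Guca2a difference with CO2-O2 (-0.13, up to 0.04) and with isoflurane (-0.16, up to 0.01) and the differences of effects of Npr2 (0.23, down to -0.45) and Prkg2 (-0.10, up to 1.51). Of the 6 members, 3 passed for the mean BDCM difference with slide as a fixed block or a threshold of 0.01 (3 to 5 with 1 animal left out). With CO2-O2 alone 1 passed without the filter on dim features or at 0.01 (1 to 2), and with isoflurane alone 1 with slide as a block (2 to 4). Among controls 1 passed with array weights. Of the 50 pathway genes, 12 passed for the mean with the slide block or at 0.01 (17 to 24 with 1 animal left out). With CO2-O2 there were 12 with normexp, 11 with a trend in the variance prior and 3 with a slide block, a scan day block or at 0.01 (4 to 13). With isoflurane there were 8 with only the groups compared, 9 without the filter, 1 with the slide block, 6 at 0.01 and 9 without both isoflurane animals with high albumin, an alternative added after seeing the data (6 to 15). Among controls there were 9 with only the groups compared, 7 with every probe, 1 with the mean of probes, 10 with array weights and 0 at 0.01 (0 to 7). Among BDCM rats there were 0 with only the groups compared, 2 with the mean of probes, 1 at 0.01 and 4 without both animals with high albumin (6 to 7). With the replicate block, members called were 5 for the mean, 2 with CO2-O2 and 3 with isoflurane, and 19 pathway genes passed for the mean, so that it changed no member's call.

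Of all features, 13037 passed for the mean, 8329 with the slide block and 8117 at 0.01. With CO2-O2 6810 passed, 3167 under the slide block, 4104 under the scan day block and 2850 at 0.01. With isoflurane 8923 passed, 2715 with slide and 4222 at 0.01. For the difference of effects 0 passed, 11 with slide, 20 with scan day and 7 without both animals with high albumin. Among controls 3795 passed, 6679 with array weights, 1122 at 0.01 and 1790 without both animals. Among BDCM rats 5847 passed, 1306 with only the groups compared, 3878 without the filter, 1775 at 0.01 and 3012 without both animals. With 1 animal left out these counts ran from 3899 to 7739 with CO2-O2, 5472 to 9068 with isoflurane, 0 to 4 for the difference, 1592 to 4198 among controls and 3630 to 5240 among BDCM rats. Under normexp the mean differences of Npr3 and Prkg2 shrank to -0.33 and -0.14. Slide and scan day could not be fitted as blocks for comparisons of the experiments within controls or within BDCM rats. Dim signals limit what can be said of Gucy2c and Prkg2.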
